A study of Mus musculus with 9 samples.

Results

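The genes described here encode the subunits of the respiratory chain and of ATP synthase that are made from nuclear DNA, measured by RNA sequencing in mouse heart. They were taken by symbol as Ndufa, Ndufb, Ndufc, Ndufs, Ndufv, Uqcr, Cox5, Cox6b, Cox6c, Cox7b, Cox7c and Atp5 genes together with Cyc1 and Cycs. Of 96 symbols that matched, 8 Ndufaf assembly factors were left out, and 88 of the 13795 genes in the deposited table remained. These 88 comprised 73 subunit genes and 15 copies. The subunit genes were 37 of complex I, 9 of complex III, 1 for cytochrome c, 9 of complex IV and 17 of ATP synthase. Of the copies 11 are named as pseudogenes, and 1 of these, Cox5b-ps, is annotated as protein-coding in GENCODE M21. The other 4, Ndufs6b, Cox6c2, Ndufa11b and Ndufb4c, are annotated there as processed pseudogenes. Ndufb1-ps was counted with complex I because this symbol stands for Ndufb1 in the mouse, although it is annotated as a non-coding RNA gene. Ndufa4 and Ndufa4l2 were counted with complex IV, where the Ndufa4 protein is now placed.

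All hearts came from mice of the C57BL/6 strain. The 4 vehicle heart samples were set against 5 heart samples of the group that received 10 mg/kg of oxaliplatin, which is a platinum-based anticancer drug. Tissue was taken after 8 weeks, and the RNA that was sequenced had an integrity above 8. Sex, age, the number of doses and the part of the heart taken were not given in the sources used here. Nothing in the labels says that the samples are separate animals, so every p-value reflects only how these samples spread, and that spread may be technical.

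Complex I takes electrons from NADH and complex III passes electrons from ubiquinol to cytochrome c, a small carrier protein. Complex IV hands them to oxygen. The proton gradient built on the way drives ATP synthase, whose F1 head makes ATP while a ring of c subunits turns in the membrane. In heart muscle this machinery supplies nearly all of the ATP used for contraction, and each complex except complex II is assembled from products of both the nuclear and the mitochondrial genome.

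No nuclear-encoded subunit gene passed the test between oxaliplatin and vehicle. Values of nearly all of them went up and down together from sample to sample, and 3 of the 5 oxaliplatin samples, numbers 2, 3 and 4, had low scores of complexes I and III and of ATP synthase while oxaliplatin 1 and 5 lay among the vehicle samples. A few members did not share this pattern, least of all Cox6b2, Ndufa4l2 and Ndufa11. Ndufa4l2, an isoform of a complex IV subunit, was high in 4 of 5 oxaliplatin samples. Ndufa11, a membrane subunit of complex I, was higher relative to the other complex I genes in every oxaliplatin sample than in any vehicle sample. The same held for Ndufs8, by a smaller amount. These relative values were singled out after they were seen and have no test. Relative to all subunit genes, 3 of 73 were higher in this way, against 11.8% of all genes. Ndufa11 was among them and Ndufs8 was not.

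Values are the deposited normalized counts, whose sum per sample was 29409543 to 36949836. An estimated 28477716 to 36185614 reads lay behind each sample. All 12 cardiomyocyte markers of the list were measured, and together they took 4.45% to 6.36% of the counts. Atrial markers differed widely between samples of both groups. Their mean deviation from the average of all samples was 3.11 log2 units in vehicle 1, 3.87 in oxaliplatin 2, 3.28 in oxaliplatin 4 and 1.41 in oxaliplatin 3, against -5.12 to -0.56 in the other 5 samples. Oxaliplatin 2, 3 and 4 thus held more atrial transcripts than oxaliplatin 1 and 5.

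Members were among the abundant transcripts of the heart. Together the 73 subunit genes took 6.42% to 7.14% of all normalized counts in vehicle samples and 5.50% to 7.09% in oxaliplatin samples. Over all samples complex I took 1.80% to 2.43%, ATP synthase 2.14% to 2.67%, complex III 0.810% to 1.11% and complex IV 0.625% to 0.830%. On a scale of normalized counts per kilobase of transcript, which is approximate because 1 transcript length was assigned to each gene, vehicle levels differed between the complexes. The median level was 20177 per kilobase for complex I, 56271 for complex III, 48627 for complex IV and 49387 for ATP synthase. Within complex I levels spanned 12.6-fold, from Ndufs4 at 5863 per kilobase to Ndufb8 at 73749. In ATP synthase they spanned 8.54-fold and in complex III 5.39-fold. The c ring gene Atp5g1 had the highest level per kilobase of the subunit genes, at 159034, and Cox6b2, the testis form of a complex IV subunit, the lowest at 210.

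**Figure D1:**
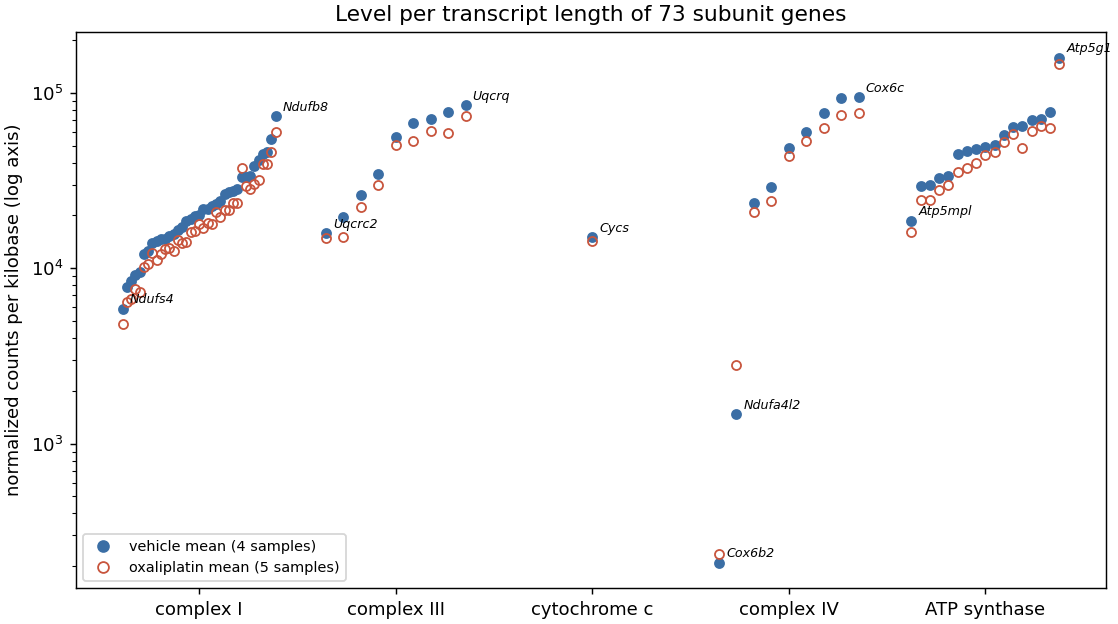
Mean level of each of the 73 subunit genes in normalized counts per kilobase of transcript (log axis), with filled points for the 4 vehicle samples and open points for the 5 oxaliplatin samples, ordered within each complex by vehicle level. Complex I genes centre on 20177 per kilobase and those of complex III on 56271, and the open point of Ndufa4l2 lies above its filled point.

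The subunit genes moved as a block across samples. A score gives, for each sample, how far the genes of a list lay on average from their own 9-sample means, in log2(normalized count + 1). For the 73 subunit genes it was 0.09, 0.25, 0.35 and -0.17 in vehicle samples 1 to 4. In oxaliplatin samples 1 to 5 it was 0.30, -0.29, -0.23, -0.38 and 0.08. The groups therefore overlapped, with vehicle 4 low and oxaliplatin 1 second only to vehicle 3. Vehicle 3 gave the highest value for 44 of the 73 genes and oxaliplatin 1 for 20, while oxaliplatin 4 gave the lowest for 50. Oxaliplatin 4 was below every vehicle sample for 67 of the 73 genes, oxaliplatin 3 for 52 and oxaliplatin 2 for 50. The same held for 4 genes in oxaliplatin 5 and for 0 in oxaliplatin 1, which was above the vehicle mean for 62 genes. Complexes I and III and ATP synthase gave this order in outline. The complex I score was 0.11, 0.26, 0.38 and -0.13 in the vehicle samples and 0.31, -0.29, -0.28, -0.42 and 0.06 in the oxaliplatin samples. The complex IV score was 0.03, 0.16, 0.26 and -0.27 in the vehicle samples and 0.27, -0.33, -0.08, -0.19 and 0.15 in the oxaliplatin samples. There oxaliplatin 1 was the highest of all samples, and oxaliplatin 3 and 4 lay above vehicle 4.

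Across the 9 samples, the Pearson correlation of a subunit gene with the mean of the other subunit genes had a median of 0.96, and 69 of 73 genes were above 0.8. These correlations describe the 9 libraries, which share scaling and depth with every gene, and carry no test. The lowest were Cox6b2 (-0.31), Ndufa4l2 (0.01), Ndufa11 (0.66) and Ndufs1 (0.78). Outside the members, the genes whose log2 values over the 9 samples correlated best with the mean of all 88 members were Mrpl54 (0.991), Cox14 (0.986), Mrpl28 (0.984), Apobec2 (0.983) and Cox8b (0.982). Mrpl54 and Mrpl28 encode proteins of the mitochondrial ribosome, Cox14 an assembly factor of complex IV and Cox8b a muscle subunit of complex IV, and Apobec2 is a muscle protein of the cytidine deaminase family.

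Heart muscle markers and other cell type markers moved with these values in part. The cardiomyocyte score was 0.07, 0.18, 0.29 and 0.24 in the vehicle samples and 0.09, -0.26, -0.28, -0.32 and -0.00 in the oxaliplatin samples, so it was low in oxaliplatin 2, 3 and 4 as well. All 12 markers had negative log2 fold changes (median -0.34), and Myh6 and Myl2, the alpha myosin heavy chain and the ventricular regulatory light chain, fell by 0.67 and 0.70 on the log2 scale (limma, Benjamini-Hochberg adjusted p = 0.0197 and 0.0337). Neither passed without the samples of high atrial score described next, after quantile normalization or with the erythroid score in the model, and Myl2 was also lost without any one of vehicle 1, 2 and 3 or oxaliplatin 2, 3 and 4. Vehicle 4 was an exception to the shared pattern, with a high cardiomyocyte score and low respiratory chain values. In bulk tissue fewer cells of a type and less RNA per cell cannot be told apart. Without the 4 samples whose atrial score was above 1 (vehicle 1 and oxaliplatin 2, 3 and 4), the median log2 fold change of the subunit genes was 0.02 and 28 of 73 were negative. That comparison sets 3 vehicle samples against oxaliplatin 1 and 5. Without the 3 samples of highest atrial score (vehicle 1 and oxaliplatin 2 and 4), chosen after seeing the data, the median was -0.12 and 64 of 73 were negative. When the atrial score was added to the model the median was -0.21 and 70 of 73 were negative. Centred on the cardiomyocyte markers, which moves the median of all genes to 0.33, the subunit median was 0.08 and 13 of 73 were negative. The direction given here for the subunit genes is therefore that of all 9 samples relative to all transcripts. It did not hold relative to cardiomyocyte markers or without the 4 samples of high atrial score.

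**Figure D2:**
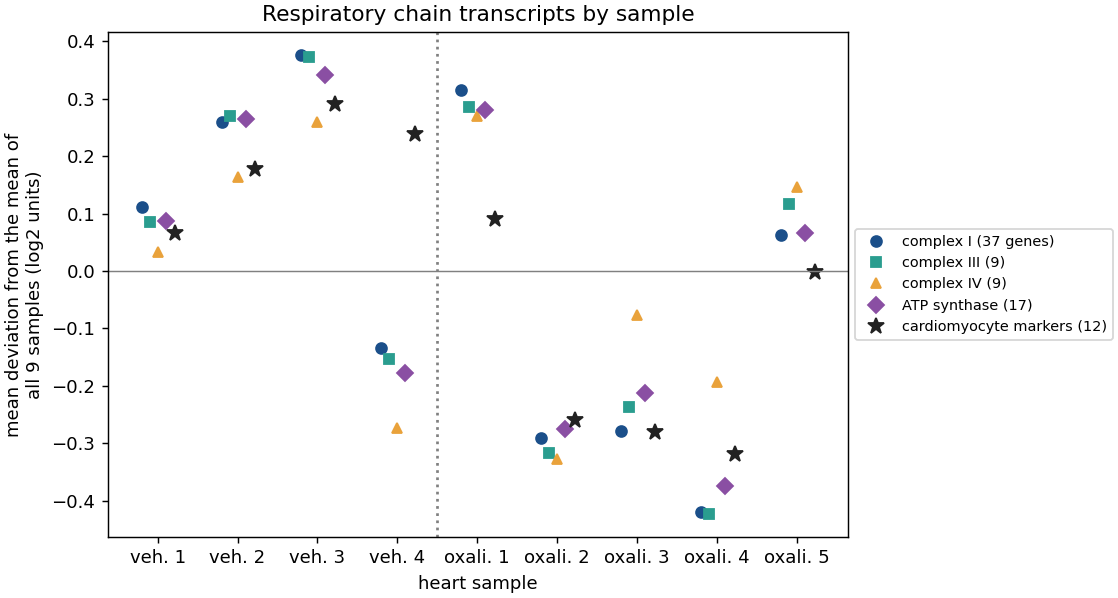
Score of each complex (points) and of 12 cardiomyocyte markers (stars) in each heart sample, in log2 units as the mean deviation from the average of all 9 samples, with vehicle samples left of the dotted line and oxaliplatin samples right of it. Oxaliplatin 2, 3 and 4 are the lowest samples for complexes I and III, ATP synthase and the cardiomyocyte markers, in complex IV oxaliplatin 3 and 4 lie above vehicle 4, and vehicle 4 is low for the complexes only.

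Scores of the other marker lists are given for the same samples, and their part in the result was not tested. The endothelial score (7 genes, 1 of them past the test and higher) was -0.33 to -0.22 in vehicle samples and 0.36, -0.11, 0.32, 0.21 and 0.41 in oxaliplatin samples 1 to 5. All 8 fibroblast markers had positive log2 fold changes with a median of 0.43, and 0 passed (score -0.68 to -0.08 in vehicle and -0.63 to 0.91 in oxaliplatin samples). Of 6 smooth muscle and pericyte markers 1 passed and was higher, with a list median of 0.60 and scores of -0.73 to 0.08 against -0.26 to 0.63. Of 7 macrophage markers 1 passed and was higher (median -0.31; scores -0.20 to 0.24 against -0.70 to 0.66). Erythroid markers had a median of -3.06, with 0 of 6 passing, and their score was 0.75 to 1.96 in vehicle samples and -3.61 to 2.03 in oxaliplatin samples. Of 6 adipocyte markers 5 were tested and 0 passed (median 1.48), with the highest score, 3.68, in oxaliplatin 2 and the others from -1.84 to 0.74. Ucp1, which defines brown fat, was at 0 in all vehicle samples and at 651 normalized counts in oxaliplatin 2. Of 7 skeletal muscle markers 3 were measured (Tnnt3, Tnni2 and Mybpc2), and 0 passed (median 0.14; scores -0.59 to 0.87 over all samples).

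Oxaliplatin was compared with vehicle by limma on log2(normalized count + 1) over 13788 genes, and fold changes are on this log2 scale. Of all genes tested 5.03% passed and were lower, 9.23% passed and were higher (14.3% in all), and the median log2 fold change was -0.02. Of the 88 members, all of which met the minimum mean of 10 normalized counts, 0 passed in either direction. Passing meant a Benjamini-Hochberg adjusted p under 0.05. At an unadjusted p under 0.05 there were 8 lower members, where all genes had 12.8%, and 1 higher member, where all genes had 16.0% (28.8% either way). Groups that did not overlap were found for 0 members, against 5.93% of all genes lower and 8.99% higher. Negative log2 fold changes were given by 70 of the 73 subunit genes, where 52.3% of all genes were negative, and positive ones by 3, where 47.7% of all genes were positive. Since the subunit genes move together, that count does not amount to 70 separate observations. The median over the 73 was -0.26, and a typical interval was wide. The median lower bound of the 95% intervals was -0.64 and the median upper bound 0.12, which in percent of the vehicle level is a change from -35.7% to 8.41%. Without oxaliplatin 1, 6 members passed and were lower, where 6.19% of all genes did. Without vehicle 4 there was 1, where 4.24% of all genes passed and were lower. With samples weighted by how closely each followed the fit, 34 passed and were lower, where 11.4% of all genes did. That weighting gave oxaliplatin 1 (0.42) and vehicle 4 (0.43) the lowest weights.

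**Figure D3:**
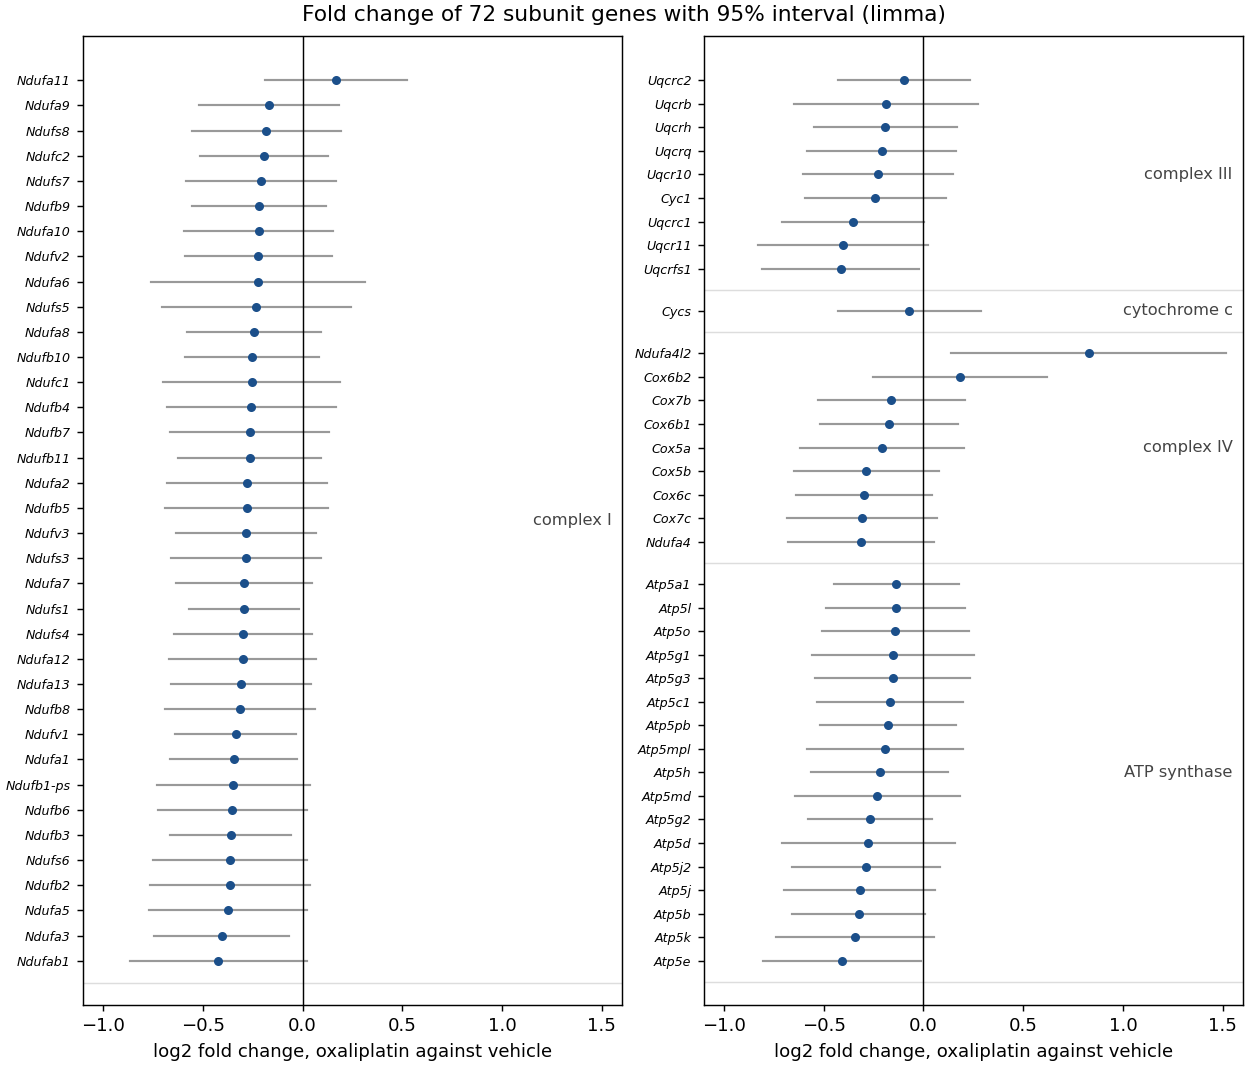
Log2 fold change of oxaliplatin against vehicle for 72 of the 73 subunit genes (points) with its 95% interval from limma (lines), grouped by complex. Of the intervals shown 64 hold 0, 7 lie below it and that of Ndufa4l2 lies above it.

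In complex I, 36 of 37 genes had negative log2 fold changes, and the median of the complex was -0.28. At an unadjusted p under 0.05, 6 of the 37 were lower, where 12.8% of all genes were. The 7 core subunits of the matrix arm, most of which hold the flavin or an iron-sulfur cluster, had a median of -0.28, the 16 genes of the matrix arm with its accessory subunits -0.29 and the 20 accessory genes of the membrane arm -0.27. Ndufv1, the NADH-binding flavin subunit, lies on chr19:4007384-4012806 (GRCm38). It had 42688, 46636, 45782 and 41967 normalized counts in vehicle samples 1 to 4 and 45241, 29969, 30956, 33806 and 37329 in oxaliplatin samples 1 to 5. Only oxaliplatin 1 reached the vehicle range (log2 fold change -0.34 with a standard error of 0.14, limma adjusted p = 0.131; 0.0240 without oxaliplatin 1 and up to 0.264 without another sample).

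Of the remaining core subunits Ndufs1, which holds several iron-sulfur clusters, had 20235 ± 2065 normalized counts in vehicle and 16534 ± 1917 in oxaliplatin samples (SD, n = 4 and n = 5; log2 fold change -0.29, limma adjusted p = 0.146). Ndufs3 had 12634 ± 1465 and 10600 ± 2776. Ndufs7, at the quinone site, had 33809 ± 3533 and 29860 ± 7932. For Ndufs3 and Ndufs7 the spread was wider in oxaliplatin than in vehicle samples, and for Ndufs1 it was not. Ndufs8 had 19834 ± 3379 and 17643 ± 4035, and Ndufv2, next to the flavin subunit, had 25785 ± 4586 and 22189 ± 4543. For Ndufs3, Ndufs7, Ndufs8 and Ndufv2 the log2 fold changes ran from -0.28 to -0.18, with limma adjusted p of 0.302, 0.458, 0.530 and 0.422.

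Among accessory subunits Ndufa3, a small protein of the membrane arm on chr7:3617373-3620327, had the smallest p. Its values were 21466, 22741, 23730 and 17812 normalized counts in vehicle and 21104, 13689, 15527, 13183 and 18218 in oxaliplatin samples. Oxaliplatin 2, 3 and 4 were below every vehicle sample, and oxaliplatin 1 and 5 were not. The log2 fold change was -0.41 (with a standard error of 0.16, by limma adjusted p = 0.103; 0.0257 without oxaliplatin 1 and up to 0.251 without another sample). Ndufb3, another small membrane subunit, had 6437 ± 629 normalized counts in vehicle and 5065 ± 972 in oxaliplatin samples (log2 fold change -0.36, limma adjusted p = 0.105; 0.0168 without oxaliplatin 1 and up to 0.266 without another sample). The lowest log2 fold change of a member was that of Ndufab1, the mitochondrial acyl carrier protein found in both arms, at -0.42 (26222 ± 4519 against 20051 ± 6147, limma adjusted p = 0.195). Ndufs4, an accessory subunit whose loss causes mitochondrial disease, had 9955 ± 1650 and 8134 ± 1624 normalized counts (log2 fold change -0.30, limma adjusted p = 0.243). Ndufa9, at the joint of the arms, was the second highest of complex I in log2 fold change, at -0.17 (limma adjusted p = 0.532).

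**Figure D4:**
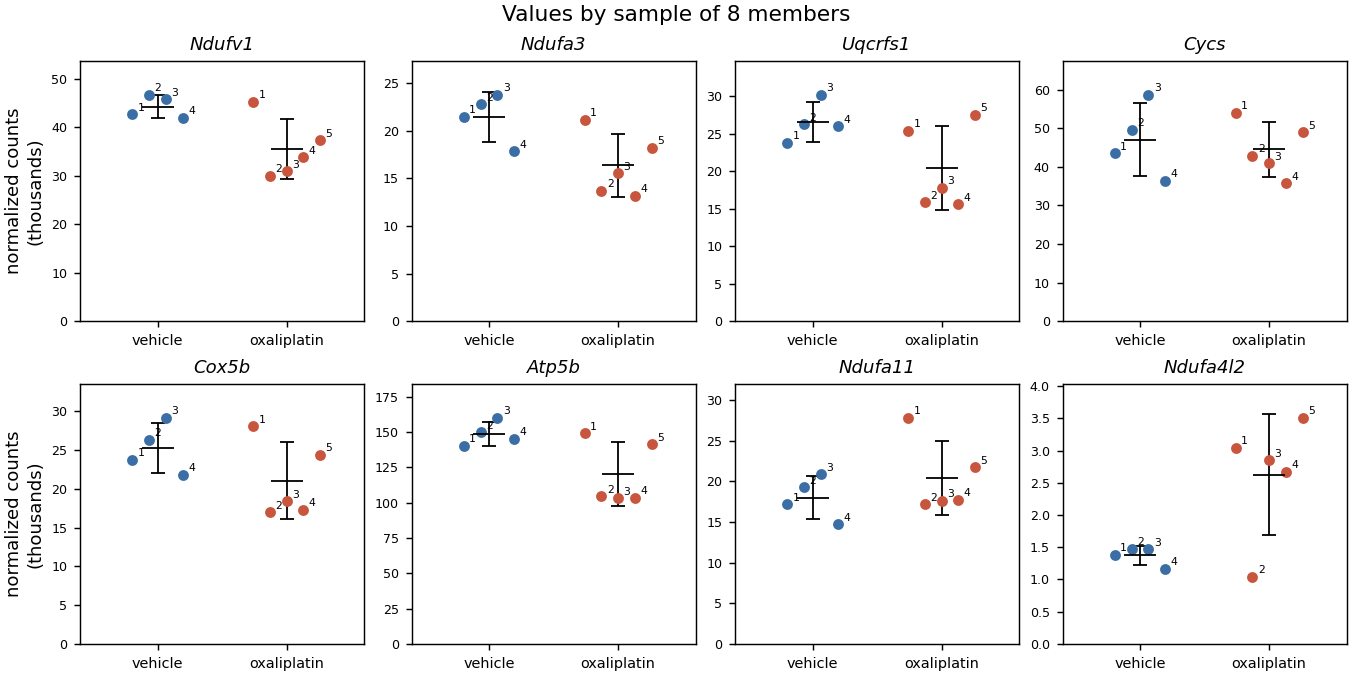
Normalized counts (divided by 1000, axes from 0) of 8 members in each of 4 vehicle and 5 oxaliplatin samples, with sample numbers beside the points, horizontal bars for the mean and whiskers for the SD. In Ndufv1, Ndufa3, Uqcrfs1, Cox5b and Atp5b oxaliplatin 2, 3 and 4 lie below every vehicle sample, while Ndufa4l2 is high in 4 of 5 oxaliplatin samples.

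Ndufa11 was the 1 gene of complex I with a positive log2 fold change. It encodes a membrane protein of the complex, and is found on chr17:56717767-56722141 on the plus strand. Its values were 17154, 19278, 20850 and 14691 normalized counts in vehicle samples and 27835, 17170, 17594, 17739 and 21727 in oxaliplatin samples. The groups overlapped, and the log2 fold change was 0.17 (95% interval -0.19 to 0.52, limma adjusted p = 0.539). Set against the median of the other complex I genes in the same sample, its deviation was -0.28, -0.23, -0.25 and -0.25 log2 units in vehicle samples 1 to 4. In oxaliplatin samples 1 to 5 it was 0.25, 0.14, 0.20, 0.32 and 0.12. On this relative scale the groups did not overlap and differed by 0.46, with an SD of 0.018 in vehicle and 0.082 in oxaliplatin samples. The relative value was singled out after it was seen and has no test. By the same measure within its own complex, Ndufs8 (-0.06 ± 0.04 against 0.05 ± 0.04, SD, n = 4 and n = 5) and Atp5o were also higher in every oxaliplatin sample and Cox7c was lower. That made 3 of the 73 higher and 1 lower, and no share of all genes was computed for this measure. Relative to the median of all subunit genes, 3 of the 73, Ndufa11, Atp5o and Uqcrc2, were higher in every oxaliplatin sample than in any vehicle sample and 0 were lower, where the same rule holds for 11.8% of all genes higher and 0.899% lower. Ndufa11 passed and was higher after quantile normalization (log2 fold change 0.27, limma adjusted p = 0.0397) and when centred on cardiomyocyte markers (0.52, limma adjusted p = 0.00612), which moves the median of all genes to 0.33. It did not pass in the other 22 of 24 alternatives, where its log2 fold change was as low as 0.03 (adjusted p up to 0.875). Vmac, which overlaps the start of Ndufa11 on the opposite strand, had 122 ± 10.6 normalized counts in vehicle and 107 ± 21.2 in oxaliplatin samples. The copy Ndufa11b had 115 ± 24.6 and 125 ± 25.0. Both were low beside Ndufa11.

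**Figure D5:**
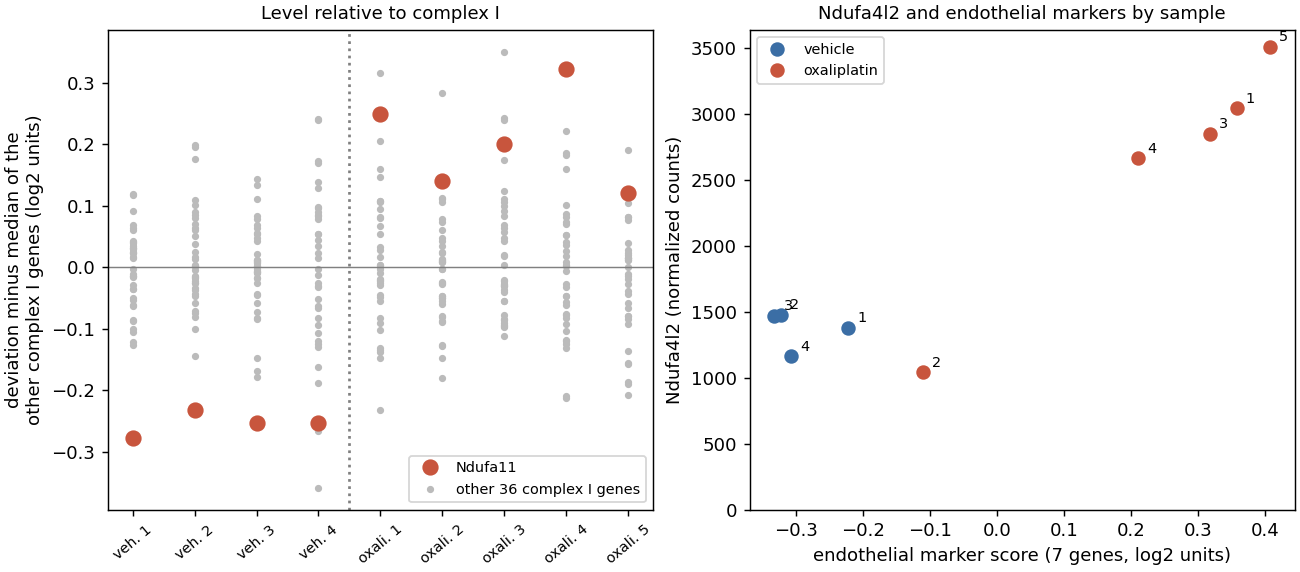
Left, deviation of Ndufa11 (large points) and of the other 36 complex I genes (small points) from the median of the other complex I genes, in log2 units per sample, with vehicle samples left of the dotted line. Right, Ndufa4l2 in normalized counts (axis from 0) against the endothelial marker score in log2 units, with sample numbers. Ndufa11 lies between -0.28 and -0.23 in vehicle and between 0.12 and 0.32 in oxaliplatin samples, and oxaliplatin 2 has the lowest Ndufa4l2 value of all samples and the lowest endothelial score of the oxaliplatin samples, above that of every vehicle sample.

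Promoter sequences are shown for Ndufa11, Ndufa3 and Atp5e, a member that stood apart within complex I, one that followed the common pattern (correlation 0.95 with the other subunit genes) and one that followed it less (0.80), because coordinated respiratory genes are known to be driven through shared sites such as those of NRF1, GABPA, estrogen-related receptors and YY1. The sequences are from RefSeq on GRCm38.p6, span 300 bases around the start of the gene, and are given 5′ to 3′ on the strand of the gene. Capitals mark letters that match a searched motif on either strand. Ndufa11 (chr17:56717512-56717811, plus strand) holds the NRF1 palindrome 60 bases before the start. Ndufa3 (chr7:3617123-3617422, plus strand) holds the core letters of the hypoxia-inducible factor site in reverse and then the YY1 letters, which begin at base 23 of the gene. Atp5e (chr2:174464052-174464351, minus strand) holds the GABPA letters and then the estrogen-related receptor letters, both in reverse.
Ndufa11: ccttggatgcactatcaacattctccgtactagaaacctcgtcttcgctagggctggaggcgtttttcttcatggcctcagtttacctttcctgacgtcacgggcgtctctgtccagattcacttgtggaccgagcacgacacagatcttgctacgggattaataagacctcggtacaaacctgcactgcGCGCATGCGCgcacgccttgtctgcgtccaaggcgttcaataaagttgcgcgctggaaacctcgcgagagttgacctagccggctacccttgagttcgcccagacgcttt
Ndufa3: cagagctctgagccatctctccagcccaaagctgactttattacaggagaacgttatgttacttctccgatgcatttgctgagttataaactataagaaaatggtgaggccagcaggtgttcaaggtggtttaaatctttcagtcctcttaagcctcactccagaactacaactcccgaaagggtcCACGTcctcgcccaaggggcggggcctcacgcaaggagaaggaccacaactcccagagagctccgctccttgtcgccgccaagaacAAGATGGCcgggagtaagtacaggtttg
Atp5e: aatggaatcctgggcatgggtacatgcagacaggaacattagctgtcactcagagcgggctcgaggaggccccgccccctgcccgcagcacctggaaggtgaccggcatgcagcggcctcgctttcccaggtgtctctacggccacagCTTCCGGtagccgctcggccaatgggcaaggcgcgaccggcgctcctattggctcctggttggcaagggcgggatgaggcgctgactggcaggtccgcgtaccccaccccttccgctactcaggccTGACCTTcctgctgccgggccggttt

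Such entries were found for 60 of the 73 subunit genes, with 65 promoters. The NRF1 palindrome, as capitalised in Ndufa11, occurred in 4 of the 65 (6.15%, against 0.971% of 32851 promoters and 1.97% of the 12914 promoters of tested genes), in Atp5g2, Atp5k, Ndufa11 and Uqcrc1. The YY1 letters AAGATGGC occurred in 10 (15.4%, against 2.75% and 4.20%), among them Atp5j, Ndufa9, Ndufb8, Ndufs4, Ndufs6 and Ndufs7. The estrogen-related receptor letters AAGGTCA occurred in 7 (10.8%, against 4.72% and 3.22%) and the GABPA letters CCGGAAG in 13 (20.0%, against 8.86% and 16.9%). ACGTG, the core of the hypoxia-inducible factor site, occurred in 16 (24.6%, against 19.6% and 25.1%). Both strands were searched, and none of these motifs contains another. A match is a description of letters and not of binding, and 26 of the 65 held none of these motifs.

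In complex III all 9 genes had negative log2 fold changes, with a median of -0.23. At an unadjusted p under 0.05, 1 of the 9 was lower, where 12.8% of all genes were. Uqcrfs1, the Rieske iron-sulfur protein that takes electrons from ubiquinol, lies on chr13:30540308-30545362. It had 23784, 26264, 30140 and 25991 normalized counts in vehicle and 25412, 15832, 17765, 15592 and 27481 in oxaliplatin samples. Oxaliplatin 2, 3 and 4 stood well below all other samples, and oxaliplatin 1 and 5 lay within the vehicle range (log2 fold change -0.42 with a standard error of 0.18, limma adjusted p = 0.148). Cyc1, the cytochrome c1 that passes them on, had 39573 ± 4464 normalized counts in vehicle and 33960 ± 7499 in oxaliplatin samples (log2 fold change -0.24, limma adjusted p = 0.360). The core proteins Uqcrc1 and Uqcrc2 differed in size of change, with log2 fold changes of -0.35 and -0.10 (limma adjusted p = 0.179 and 0.719), and the difference between them was not tested. Without oxaliplatin 1 Uqcrc1 passed (adjusted p = 0.0427), and without another sample its adjusted p was up to 0.374. Of the small subunits Uqcr11 was at -0.40 and Uqcrb at -0.19 (limma adjusted p = 0.200 and 0.606).

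Cytochrome c itself, from Cycs on chr6:50562563-50566538, had the log2 fold change nearest to 0 of the 73 subunit genes. Its values were 43476, 49567, 58575 and 36397 normalized counts in vehicle and 54052, 42911, 40931, 35733 and 48951 in oxaliplatin samples. Both groups spanned nearly the same range, and the log2 fold change was -0.07 (95% interval -0.43 to 0.29, limma adjusted p = 0.815). The interval also holds the median of the other genes, so a difference of Cycs from them is not shown. Per kilobase its vehicle level, 15051, was below the median of every complex.

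Of the 9 genes of complex IV, 7 had negative log2 fold changes, and the median was -0.21 with or without Ndufa4 and Ndufa4l2. Cox5b, a subunit on the matrix side, had 23738, 26283, 29166 and 21795 normalized counts in vehicle and 28057, 16987, 18394, 17289 and 24386 in oxaliplatin samples. Oxaliplatin 2, 3 and 4 were below every vehicle sample (log2 fold change -0.29 with a standard error of 0.17, limma adjusted p = 0.285). Cox5a, its neighbour in the complex, had 38490 ± 5580 against 34057 ± 9646 (log2 fold change -0.21, limma adjusted p = 0.503). Cox6c, Cox7c and Cox7b had log2 fold changes of -0.30, -0.31 and -0.16 (limma adjusted p = 0.237, 0.264 and 0.570). Cox6b1, the common form of subunit VIb, had 30051 ± 4246 and 26826 ± 5395 normalized counts (log2 fold change -0.17, limma adjusted p = 0.509). Cox6b2, the testis form, was low in heart at 97.4 ± 20.0 and 110 ± 17.5 (log2 fold change 0.18, limma adjusted p = 0.592). Per length it made up 0.333% to 0.766% of the sum of both forms.

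Ndufa4l2 gave the highest log2 fold change of the members. It is a paralog of Ndufa4 known as a target of hypoxia-inducible factor, and lies on chr10:127514967-127517154. Its values were 1380, 1478, 1470 and 1164 normalized counts in vehicle samples 1 to 4 and 3045, 1043, 2850, 2666 and 3511 in oxaliplatin samples 1 to 5. Oxaliplatin 1, 3, 4 and 5 were all above the vehicle range and oxaliplatin 2 was below it. The log2 fold change was 0.83 (standard error 0.31, 95% interval 0.14 to 1.52, limma adjusted p = 0.105), and without oxaliplatin 2 it was 1.13 (adjusted p = 7.71e-05). Without any other single sample it did not pass, with a log2 fold change down to 0.70 and an adjusted p up to 0.207. Without the 4 samples of high atrial score, oxaliplatin 2 among them, it was 1.26 (adjusted p = 4.53e-04). Ndufa4l2 also passed without the 3 samples of highest atrial score. With all samples kept it passed with array weights, the erythroid score or the atrial score as a covariate, and centred on cardiomyocyte markers (limma adjusted p = 0.0329, 0.0403, 0.0482 and 0.0115). It did not pass in the remaining alternatives, with an adjusted p up to 0.221. Ndufa4 itself had 54963, 66326, 65280 and 41300 normalized counts in vehicle and 55772, 41785, 44966, 36885 and 47814 in oxaliplatin samples, the common pattern of the subunit genes (log2 fold change -0.31, limma adjusted p = 0.242). In normalized counts Ndufa4l2 was 2.23% to 2.82% of Ndufa4 in vehicle samples. It was 5.46%, 6.34%, 7.23% and 7.34% in oxaliplatin 1, 3, 4 and 5 and within the vehicle range in oxaliplatin 2, and Ndufa4 had the higher count in every sample. Shmt2, which overlaps the end of Ndufa4l2 on the opposite strand, had 1512 ± 63.2 normalized counts in vehicle and 1387 ± 213 in oxaliplatin samples (log2 fold change -0.14, limma adjusted p = 0.483).

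Endothelial markers went with Ndufa4l2 in part. Their score ordered the oxaliplatin samples as 5, 1, 3, 4 and 2 from high to low, which is also the order of Ndufa4l2, and all vehicle samples had lower scores than any oxaliplatin sample. In oxaliplatin 2 the measures differed against vehicle, since its endothelial score was above that of every vehicle sample and its Ndufa4l2 value below. The smooth muscle and pericyte score was -0.73, -0.20, -0.67 and 0.08 in vehicle and -0.26, 0.58, 0.40, 0.63 and 0.16 in oxaliplatin samples, high in oxaliplatin 2 where Ndufa4l2 was low. The part of endothelial or other vessel cells in the Ndufa4l2 value was not tested. Another isoform of complex IV outside the members followed the same samples. Cox4i2, the alternative form of subunit IV, had 586, 631, 538 and 524 normalized counts in vehicle and 1203, 508, 1239, 1331 and 1276 in oxaliplatin samples. It rose by 0.89 on the log2 scale (standard error 0.25, limma adjusted p = 0.0394), and oxaliplatin 2 was again below the vehicle range. This call was lost in 10 of 24 alternatives, among them without any one of the 4 vehicle samples or of oxaliplatin 1, 3, 4 or 5, with a highest adjusted p of 0.131 over all alternatives. Its common counterpart Cox4i1 had 99309 ± 11696 and 82480 ± 13868 normalized counts and a log2 fold change of -0.28 (limma adjusted p = 0.256).

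In ATP synthase all 17 genes had negative log2 fold changes, with a median of -0.22. At an unadjusted p under 0.05, 1 of the 17 was lower, where 12.8% of all genes were. The 5 genes of the F1 head had a median of -0.28, the 4 of the peripheral stalk -0.20 and the 8 of the membrane part -0.21. Atp5b, the catalytic beta subunit on chr10:128083273-128090391, had 140200, 150037, 160336 and 145313 normalized counts in vehicle samples. In oxaliplatin samples it had 149155, 104609, 103210, 103693 and 141370. Oxaliplatin 2, 3 and 4 were close together and far below the rest (log2 fold change -0.33 with a standard error of 0.15, limma adjusted p = 0.183). Atp5a1, the alpha subunit with which it forms the head, had 157720 ± 8008 and 144832 ± 23836 normalized counts (log2 fold change -0.14, limma adjusted p = 0.575). The remaining head subunits gamma (Atp5c1) and delta (Atp5d) had log2 fold changes of -0.17 and -0.28 (limma adjusted p = 0.548 and 0.392).

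Atp5e, the epsilon subunit of the central stalk, did not follow that order of samples closely. It had 27030, 33171, 31170 and 18145 normalized counts in vehicle and 22866, 19110, 23112, 15466 and 21091 in oxaliplatin samples. Vehicle 4 was lower than all oxaliplatin samples but number 4, and the other 3 vehicle samples were above all oxaliplatin samples. The log2 fold change was -0.41 (with a standard error of 0.18, by limma adjusted p = 0.163), and without vehicle 4 it was -0.59 (adjusted p = 0.0307), against an adjusted p of up to 0.380 without another sample. The c ring is encoded by 3 genes that give the same mature protein. Per length, Atp5g1 made up 64.9% to 68.9% of their sum over all samples, Atp5g3 18.9% to 23.6% and Atp5g2 10.1% to 13.4%. Their log2 fold changes were -0.15, -0.15 and -0.27 (limma adjusted p = 0.632, 0.613 and 0.242), and vehicle and oxaliplatin shares overlapped for each of them. Of the small membrane subunits Atp5k was at -0.34 and Atp5l at -0.14 (limma adjusted p = 0.238 and 0.613).

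In vehicle 4 short transcripts were lower than long ones. In it the 32 subunit transcripts under 700 bases had a median deviation of -0.20 and the 40 longer ones -0.08, and over all genes the medians were -0.17 and 0.02. Oxaliplatin 4 had similar medians over all genes, -0.17 for shorter and 0.02 for longer transcripts. Cytosolic ribosomal protein genes had their lowest score, -0.31, in vehicle 4. They were low there at both lengths, with medians of -0.36 for shorter and -0.31 for longer transcripts. The median log2 fold change differed little by length, at -0.25 for shorter and -0.27 for longer subunit transcripts. Among the 15 copies 13 had negative log2 fold changes with a median of -0.17 and 0 passed, and together they took 0.0116% to 0.0172% of normalized counts. Reads of a copy and of its parent gene cannot be separated with certainty, so their values are uncertain.

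Other genes of the pathway gave few calls. Of the 4 complex II genes, 0 passed and the median was -0.24, and of 9 further complex IV subunits Cox4i2 passed, with a median of -0.28. Cox7a1, the heart form of subunit VIIa, was at -0.60 and close to the threshold (limma adjusted p = 0.0533). Of 19 listed assembly factors of complex I 17 were measured, all 17 were negative with a median of -0.22, and 2 fell. Nubpl, which delivers iron-sulfur clusters to complex I, had 332, 369, 328 and 371 normalized counts in vehicle and 276, 247, 180, 193 and 249 in oxaliplatin samples, with no overlap (log2 fold change -0.63, limma adjusted p = 0.0159). Ndufaf8 went from 1617 ± 230 to 1090 ± 263 (log2 fold change -0.59, limma adjusted p = 0.0316). Neither passed without the samples of high atrial score or centred on cardiomyocyte markers, Nubpl was lost without vehicle 2, and Ndufaf8 without any one of vehicle 1, 2 and 3 and oxaliplatin 3 and 4. Assembly factors of complex III (0 of 6 passed, median -0.30), complex IV (0 of 19 measured, median -0.18) and ATP synthase (0 of 4 measured, median -0.24) gave no calls, with lowest limma adjusted p of 0.0936, 0.111 and 0.0680. The 6 carriers of ATP, ADP and phosphate and outer membrane channels had a median of -0.03 and 0 passed.

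Of 12 regulators of respiratory genes, 2 fell, 1 rose and the median was -0.17. The coactivator Ppargc1a had 2622, 2956, 2917 and 2523 normalized counts in vehicle and 4353, 3540, 3210, 3823 and 3971 in oxaliplatin samples. The groups did not overlap, and it rose by 0.45 on the log2 scale (limma adjusted p = 0.0187; lost without vehicle 1, without the 3 samples of highest atrial score, with the erythroid score in the model or with the replicate number as a block, adjusted p = 0.0773). Its relative Ppargc1b had 1438, 1639, 1829 and 2124 normalized counts in vehicle and 980, 1121, 1215, 1193 and 1323 in oxaliplatin samples. These groups also did not overlap, and it fell by 0.58 on the log2 scale (limma adjusted p = 0.0105; lost centred on cardiomyocyte markers, scaled without mitochondrially encoded genes or with the erythroid score in the model). Oxaliplatin 1, where most respiratory chain genes were high, had the highest Ppargc1a and the lowest Ppargc1b value. Tfb1m, a methyltransferase of mitochondrial ribosomal RNA, fell by 0.52 (limma adjusted p = 0.0439), a call lost in 12 of 24 alternatives, among them without vehicle 1, 2 or 3 and without oxaliplatin 3, 4 or 5. The receptor Esrra was at -0.48 and did not pass (limma adjusted p = 0.104), and Nrf1 and Gabpa were at 0.11 and -0.15.

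The 13 mitochondrially encoded subunits, which share reads with nuclear copies, were all negative with a median of -0.35, and 1 fell, mt-Nd4 of complex I (-0.49, limma adjusted p = 0.0491; lost without any sample but vehicle 4 and oxaliplatin 1). Their score was 0.24, 0.45, 0.39 and -0.30 in vehicle samples and 0.06, -0.11, -0.15, -0.34 and -0.24 in oxaliplatin samples. Vehicle 4 was low here too, and all oxaliplatin samples were below vehicle 1, 2 and 3, while for the nuclear-encoded genes oxaliplatin 1 was above vehicle 1 and 2. Of 78 mitochondrial ribosomal protein genes, 2 fell, Mrpl38 and Mrpl3, and the median was -0.21. Each of these was lost without vehicle 2, 3 or 4 and without oxaliplatin 3 or 4, and Mrpl3 also without vehicle 1 and oxaliplatin 2. The 77 cytosolic ribosomal protein genes had a median of -0.04, with 1 lower and 1 higher.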

How the data were processed

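Values are the authors' deposited normalized counts, a signal scaled by sample, per the file headers. The submitters' processing notes name STAR 2.5.1a, Partek and DESeq2 but not what each did, and the labels' protocols name a SMARTer kit. The genome build, annotation and strandedness behind them were not given in the sources used here, and reads from copies or overlapping genes cannot be separated. Low values lay on steps, but only 73.1% to 75.9% of values between 1 and 1000 estimated reads were within 0.02 of a whole read, so no whole reads were recovered. The test was therefore made on a log scale. Estimated reads are values divided by the step.

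Groups were taken from the titles. Oxaliplatin (n = 5) was compared with vehicle (n = 4) with limma 3.58.1 in R 4.3.3 (trended, robust) on log2(normalized count + 1). The 13788 genes whose mean reached 10 entered. A gene passed at a two-sided p under 0.05 after Benjamini-Hochberg adjustment over all of them. Fold changes on this scale understate those of low genes. The script was tested on simulated data. Lengths and coordinates are from GENCODE M21 (GRCm38), matched by symbol, with a length for 87 of 88 members.

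Genes were named by a rule: any member that passed, per complex the 4 of smallest p and the 2 of highest log2 fold change, the core, F1 and catalytic subunits, isoform families, and from each other list those that passed and that of smallest p. Members, lists and tests were chosen with earlier results of these data known. Other genes named, such as Ndufab1, Ndufs4, Atp5o, Esrra and Cox4i1, were chosen after their values were seen. Alternatives covered pseudocount, filter, scaling, limma settings, array weights, the replicate number as a block, marker scores as covariates, and leaving out samples. Removal of a trend with transcript length and of the 3 samples of highest atrial score was added after seeing the data. A single member is counted in the totals and not reported here.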

Additional observations from a re-analysis of the deposited data

How the results depend on the processing

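Of the 88 members 0 passed either way, and the medians of complexes I, III, IV and ATP synthase were -0.28, -0.23, -0.21 and -0.22. Pseudocount, filter and limma settings left these 6 values on the same side. Members that were lower numbered 5 after quantile normalization, 1 scaled to the total without mitochondrially encoded genes, 34 with array weights, 6 with the atrial score as a covariate and, chosen after seeing the data, 2 with a trend with transcript length removed. Members that were higher numbered 1 after quantile normalization, 2 centred on cardiomyocyte markers, 1 with array weights and 1 without the 4 samples of high atrial score. They numbered 1 with the erythroid score as a covariate, 1 with the atrial score as a covariate and 1 without the 3 samples of highest atrial score. The last of these fits was chosen after seeing the data. In the same order 2116, 3860, 3541, 1669, 1081, 2781 and 1596 of 13788 genes passed in either direction. Array weights were lowest for oxaliplatin 1 (0.42) and vehicle 4 (0.43). The 4 medians turned to 0.0632, 0.121, 0.137 and 0.127 centred on cardiomyocyte markers, and to 0.0096, 0.022, 0.034 and 0.020 without the 4 samples of high atrial score. After quantile normalization they were -0.22, -0.10, -0.06 and -0.13. The cause of these differences was not tested.

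Leaving out each sample gave 0 to 6 lower members and 0 to 1 higher (1 without oxaliplatin 2). The lower members were 6 without oxaliplatin 1 (6.19% of all genes were lower) and 1 without vehicle 4 (4.24%). The medians ran from -0.40 to -0.21, from -0.34 to -0.14, from -0.34 to -0.12 and from -0.32 to -0.13, with those of complex IV and ATP synthase nearest to 0 without vehicle 3. Same-numbered samples of the groups had correlations of -0.27, -0.06, -0.09 and 0.25, and 1 of 4 vehicle samples correlated best with its own number. Pairing by number was thus not shown, and so few samples cannot exclude it. With the replicate number as a block, where oxaliplatin 5 has no partner, 0 members passed either way and the subunit median was -0.31. The block also ended the calls of Cox4i2, Ppargc1a, Tfb1m and mt-Nd4. Of all genes 1966 passed, against 3541 with array weights, 3860 centred on cardiomyocyte markers, and 1081 with the erythroid covariate. Leaving out vehicle 2 gave 1237, vehicle 3 gave 1110 and oxaliplatin 4 gave 1301. Of 37 named members 19 kept the same call in all 24 alternatives. With 4 and 5 samples, intervals of single members were too wide to tell a modest difference from none.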
